A study of Homo sapiens with 4 samples.

Results

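The regions described here were the broad promoter peaks of control SK-N-BE(2)C cells. A member was an ATAC-seq peak of the control list that was at least 1000 bp wide, that came within 3 kb of a protein-coding gene's transcription start site (TSS), and that lay outside a 550 kb window of chromosome 2 around the amplified MYCN gene. The members were selected on their measured width in control, so that this width is given as a description only. There were 1390 members among 47610 control peaks (2.92%) and among 12485 control promoter peaks (11.1%). They lay near 1642 of 19970 protein-coding genes (8.22%).

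In ATAC-seq the transposase Tn5 inserts sequencing adapters where DNA is not wrapped in nucleosomes, and a peak is a stretch in which inserted fragments pile up over the local background. Active promoters carry a nucleosome-depleted stretch at the TSS, held open by transcription factors, the transcription machinery and chromatin remodellers. Most promoters of housekeeping genes lie in CpG islands, stretches in which the CpG dinucleotide has not been lost by methylation and deamination, and these islands tend to be open over a longer distance than CpG-poor promoters.

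SK-N-BE(2)C is an established human neuroblastoma cell line. The control group was labelled wildtype and received a non-targeting control gRNA. The sgSNHG1 group was labelled SNHG1 knockout and received an SNHG1 gRNA, with dual guides and Cas9 on the transfected constructs. The clones were grown from single sorted cells, so that the traits of a clone and the targeting of SNHG1 cannot be told apart. The study describes its depletion of SNHG1 as partial. Each group had 2 replicates, and the authors combined them before they called peaks, so that every value below comes from 1 list per group, has no replicate spread, and carries no test between the conditions. The intervals given cover counting error only.

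The sgSNHG1 list held 42682 peaks. The smallest local background was 2.20 fragments in control and 1.72 in sgSNHG1, and the smallest peak width and the smallest gap between neighbouring peaks were 119 bp and 120 bp in control against 92 bp and 93 bp in sgSNHG1. The lists thus differed in what could be called as a separate peak. SNHG1, the targeted gene, had a control peak of 425 bp at its TSS with a fold enrichment of 5.71, and an sgSNHG1 peak of 170 bp with a fold enrichment of 6.04. Neither value measures the SNHG1 transcript. Of 12 adrenergic neuroblastoma markers, 11 had a control promoter peak, and TH had none. For 9 markers of blood, liver, keratinocyte, muscle and endothelial cells this number was 2, with peaks at APOA1 and CDH5. None of these 21 genes had a broad promoter peak. Of 10 mesenchymal state markers, 7 had a control promoter peak, and 1 of them, VIM, had a broad one.

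The genomic sequence around 4 summits is shown first, because these windows run from dense CpG islands to a promoter with few CpGs. The summit is the base of highest pileup. Each run covers 100 bp on either side of the control summit on the plus strand of GRCh38, written 5′ to 3′ from the reference genome, with CpG dinucleotides in capitals. ELF2 was the widest member, ZNF330 had the highest -log10 q among the members without an sgSNHG1 peak, LCOR showed the largest rise in sgSNHG1, and APOC3 had the fewest CpGs of the named members.
ELF2, chr4:139177937-139178137: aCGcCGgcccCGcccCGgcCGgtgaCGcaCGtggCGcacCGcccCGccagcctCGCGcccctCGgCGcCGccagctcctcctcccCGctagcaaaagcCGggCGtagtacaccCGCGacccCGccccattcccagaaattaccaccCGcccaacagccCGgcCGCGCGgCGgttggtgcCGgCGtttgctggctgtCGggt
ZNF330, chr4:141220825-141221025: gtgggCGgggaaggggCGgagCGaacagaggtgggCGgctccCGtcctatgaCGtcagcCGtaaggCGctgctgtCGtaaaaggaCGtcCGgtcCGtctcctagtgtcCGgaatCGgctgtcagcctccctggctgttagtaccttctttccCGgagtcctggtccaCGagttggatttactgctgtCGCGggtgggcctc
LCOR, chr10:96832202-96832402: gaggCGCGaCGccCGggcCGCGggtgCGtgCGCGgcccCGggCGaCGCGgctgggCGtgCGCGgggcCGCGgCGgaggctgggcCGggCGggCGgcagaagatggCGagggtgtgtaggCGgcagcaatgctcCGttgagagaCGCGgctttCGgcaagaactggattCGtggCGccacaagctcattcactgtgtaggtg
APOC3, chr11:116829032-116829232: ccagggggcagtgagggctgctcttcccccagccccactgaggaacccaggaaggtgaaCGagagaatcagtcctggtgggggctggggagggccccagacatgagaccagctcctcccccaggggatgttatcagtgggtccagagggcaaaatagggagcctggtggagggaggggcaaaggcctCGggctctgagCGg

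The ELF2 and LCOR windows each held 30 CpGs, ZNF330 held 18 and APOC3 held 3, and over all members such windows held 2 to 43 with a median of 21. The GC content of the APOC3 window was 65.2%, so that it lacked CpG and not C or G. The ELF2, ZNF330 and LCOR windows held the GC box GGGCGG on either strand. The APOC3 window held none of the 12 motifs that were searched.

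Members ranged in width from 1000 to 2352 bp with a median of 1151 bp (quartiles 1068 and 1300). Together they covered 1679 kb, which was 8.60% of all bases in control peaks. Their median fold enrichment was 8.26 (95% interval 8.13 to 8.45), against 8.40 (8.31 to 8.48) for mid-width promoter peaks, those of 500 bp to under 1000 bp, and 4.77 (4.70 to 4.83) for promoter peaks under 500 bp. Fold enrichment is the pileup at the summit over the local background, each with a pseudocount of 1. The members' median summit pileup of 57 fragments was above the 45.0 of the mid-width peaks, as were their median -log10 q, at 32.1 against 25.7, and their local background, at 6.03 against 4.56 fragments. Width and fold enrichment were weakly related among members (Spearman rho -0.13 across 1390 peaks of 1 pooled list, a description). At the limit of the rule, RAVER2, PPTC7 and KDM6A had peaks of 1000 bp with fold enrichments of 7.94, 7.09 and 8.56. COPB2, PCBD2 and GPT2, at 999 bp, had 11.9, 10.6 and 10.2.

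The widest members lay at genes of varied function. ELF2, which encodes an ETS family transcription factor, had a control peak of 2352 bp (chr4:139176249-139178600) with a fold enrichment of 7.17. The sgSNHG1 list held 2 peaks there, of 115 bp and 599 bp, which covered 30.4% of its length. SDC1, which encodes the cell surface proteoglycan syndecan-1, had a control peak of 2299 bp (chr2:20223237-20225535) at a fold enrichment of 4.95.
That stretch held 4 sgSNHG1 peaks, of 175, 795, 295 and 158 bp, the highest number in any member. Their fold enrichments, in this order, were 3.92, 3.92, 3.65 and 3.81, so that no piece stood out. PPM1A, a protein phosphatase gene, had a control peak of 2151 bp that held no TSS of the gene records and whose summit lay 2388 bp downstream of the nearest one. EPC2, a gene of the NuA4 acetyltransferase complex, had 2066 bp in control and 3 sgSNHG1 peaks that covered 49.8% of it. CAMK2D, a subunit gene of a calcium-dependent kinase, had 2044 bp and 49.5% covered. ELF2 and CAMK2D lie on chromosome 4, whose members stood apart as a group in their summit pileup, as described below. GPC6, which encodes a glypican, had a peak of 1969 bp with 3 sgSNHG1 peaks and 62% covered.
Other wide members kept a long sgSNHG1 peak. At DIPK2A a control peak of 1986 bp held an sgSNHG1 peak of 1481 bp, and at RDH10 and RPL7 a control peak of 1969 bp held 1 sgSNHG1 peak of 1809 bp. At CCNE2, the cyclin E2 gene, and its neighbour NDUFAF6 these widths were 1932 and 1154 bp. The map of the 6 widest peaks shows their pieces to scale.

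**Figure D1:**
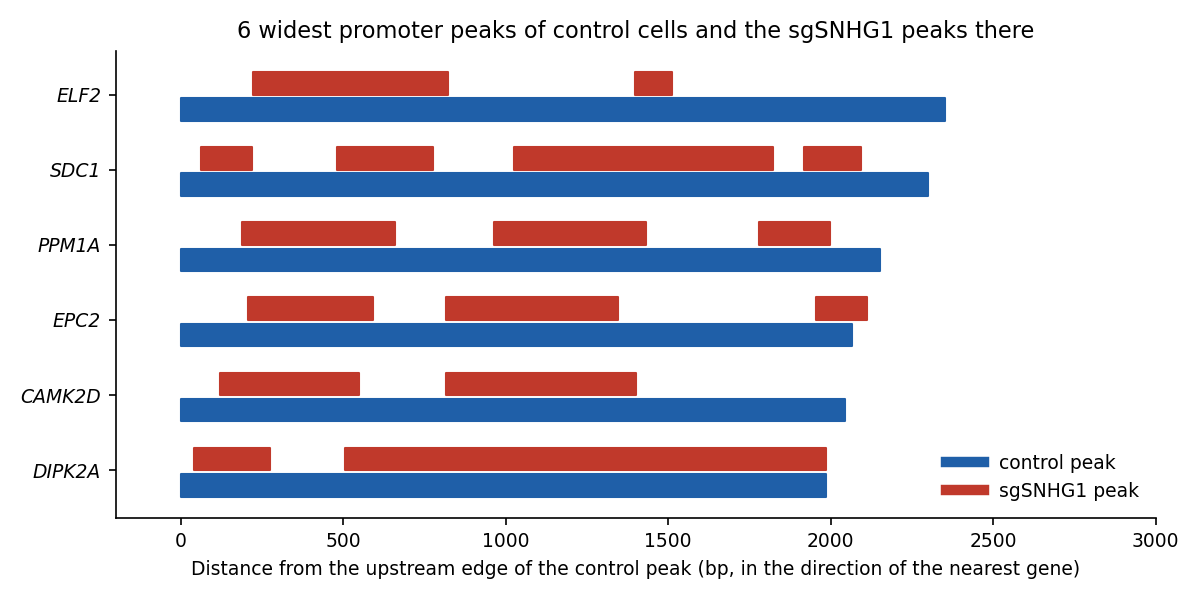
Map of the 6 widest members. The x axis is the distance in bp from the upstream edge of the control peak, read in the direction of the nearest gene. Blue bars are control peaks and red bars are all sgSNHG1 peaks that overlap them. ELF2 is the widest at 2352 bp, SDC1 holds 4 sgSNHG1 peaks, and DIPK2A keeps a long one of 1481 bp.

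Most members sat over the TSS itself. A protein-coding TSS lay inside 1203 of 1390 members (86.5%), against 81.9% of the mid-width promoter peaks, a difference of 4.61 percentage points (95% Newcombe interval 2.48 to 6.59). A wider interval holds a TSS more readily. Members with a single TSS inside that was also the one nearest the summit (1028) reached a median of 447 bp upstream and 729 bp downstream of it. They thus extended further into the gene than before it. The corresponding values for mid-width peaks were 321 bp and 380 bp. The summit lay within 500 bp of a coding TSS in 79.4% of members and in 85.4% of the mid-width peaks (difference -6, interval -8.38 to -3.75). Summits of members were thus further from the start, at a median of 169 bp against 109 bp.

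By the GENCODE annotation, 453 member summits (32.6%) lay in a 5′ UTR exon of a protein-coding gene, 320 (23%) in an intron, 79 (5.68%) in a coding exon, 2 in a 3′ UTR exon, and 536 (38.6%) outside any protein-coding gene. None of these shares differed from those of the mid-width peaks beyond the interval of the difference. Opposite coding genes whose starts lie within 1000 bp of each other, which share 1 open region, were as frequent in members (112, 8.06%) as in mid-width peaks (8.58%) within the interval of the difference (-2.05 to 1.17). Starts of lncRNA genes were more frequent. They lay in 379 members (27.3%), against 16.8% (difference 10.5, interval 8.02 to 13.1), and width itself adds to this share.

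**Figure D2:**
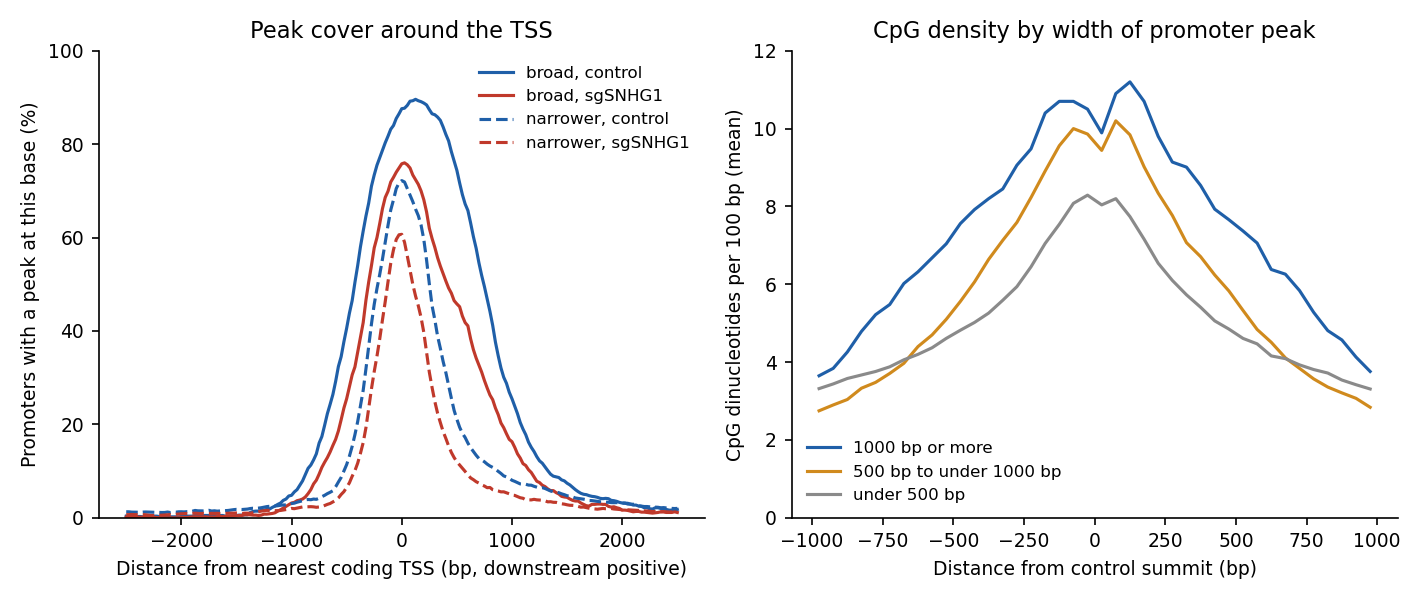
Left, share of promoters with a peak at each base, against the distance in bp from the nearest coding TSS, for members (solid) and narrower promoter peaks (dashed), in the control list (blue) and the sgSNHG1 list (red). Members are covered to 74.4% in control and 45.8% in sgSNHG1 at 500 bp downstream. Right, mean CpG dinucleotides per 100 bp against the distance from the control summit, for 3 width classes, with members above both others at every distance drawn.

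The members were richer in CpG over a longer stretch. Within 100 bp of the summit the median GC content was 70.1% (95% interval 69.7 to 70.6), against 68.2% (68.2 to 68.7) in mid-width promoter peaks and 66.2% (65.7 to 66.2) in those under 500 bp. The CpG frequency, as observed over expected, had medians of 0.887 (0.875 to 0.898), 0.876 (0.870 to 0.882) and 0.789 (0.778 to 0.797). At the summit, members and the mid-width peaks were thus close. At 525 bp on either side of the summit, members still held 7.04 and 7.37 CpGs per 100 bp, and the mid-width peaks 5.10 and 5.33. Windows with a CpG frequency of at least 0.6 and a GC content of at least 50% made up 93.5% of members and 89.6% of the mid-width peaks (difference 3.94, interval 2.33 to 5.38). Read the other way, the share of promoter peaks that were broad was 0 of 74 below 40% GC, 3.14% from 40 to 50%, 7.36% from 50 to 60%, 10.3% from 60 to 70% and 14.6% from 70% on. PNISR, at 45.8% GC, was among the members of low GC content.

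Exact letters of 12 motifs were counted on both strands within 100 bp of the summit. The GC box GGGCGG, bound by SP and KLF factors, was found in 69.9% of members, 65.3% of the mid-width peaks and 59.6% of all promoter peaks. The difference between members and the mid-width peaks was 4.56 points (interval 1.81 to 7.23). The ETS core CCGGAA went the other way. It was found in 15.9% of members, in 25% of the mid-width peaks and in 20% of all promoter peaks (difference -9.11, interval -11.3 to -6.81), and members equalled the peaks under 500 bp, at 15.8%, within the interval of that difference (-1.97 to 2.34). The AP-1 motif TGACTCA was present in 10 members (0.719%), in 1.45% of the mid-width peaks and in 1.69% of all promoter peaks. For the other 9 motifs the interval of the difference from the mid-width peaks held 0. Among them, the E-box CACGTG, which MYC and MAX proteins bind, was found in 7.27% of members and 6.64% of all promoter peaks, CCAAT in 28.3% and 27.5%, and the NRF1 motif GCGCATGC in 4.68% and 3.76%. Letters that match a motif do not show binding, and these shares depend on the GC content of the windows.

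Nearly every member had an sgSNHG1 peak. The overlap was 1379 of 1390 (99.2%, 95% Wilson interval 98.6 to 99.6), where an overlap is at least 1 bp. Over all control peaks 66.7% overlapped one, in mid-width promoter peaks 96.5%, and in promoter peaks under 500 bp 63.8%. The difference between members and the mid-width peaks was 2.73 points (interval 1.97 to 3.35). The control summit itself lay inside an sgSNHG1 peak in 95.5% of members. Among the members at or above the median -log10 q of 32.1, 100% overlapped an sgSNHG1 peak, and so did 99.9% of the narrower promoter peaks above the same value.

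The open stretch was listed as shorter and in more pieces in sgSNHG1. A single sgSNHG1 peak was found in 918 members, 2 peaks in 411, 3 in 49 and 4 in 1. Members with 2 or more numbered 461 (33.2%, interval 30.7 to 35.7), against 7.47% of the mid-width promoter peaks and 3.46% of all control peaks. The difference from the mid-width peaks was 25.7 points (interval 23.2 to 28.3). Longer intervals can hold more peaks, and the share rose from 25.1% in members less than 250 bp above the limit to 46.1%, 58.8% and 66.7% in the next 3 width classes of 250 bp each. With the same -log10 q of at least 32.1, it was 25.2% in 695 members and 2.62% in 2366 narrower promoter peaks.
The 512 gaps between these pieces had a median of 209 bp, from 93 to 1087 bp. Of them, 90 (17.6%) were below 120 bp, the smallest gap in the control list. When sgSNHG1 peaks were merged across gaps up to that size, 27.6% of members held 2 or more, and when they were merged across gaps up to 500 bp, 2.52%. With sgSNHG1 peaks of -log10 q of at least 10 only, the share was 6.26%, so that most added pieces lay below that value.

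Over the median member, sgSNHG1 peaks covered 71.5% of its length (quartiles 56.3 and 84.7), and over all members 1151 kb (68.6%). At least 50% was covered in 82.2% of members and 80.6% of the mid-width peaks (difference 1.58, interval -0.747 to 3.77). At least 90% was covered in 15% against 20.1% (difference -5.11, interval -7.19 to -2.89), and 23 members were covered in full. The missing length lay on both sides of the promoter. The outermost sgSNHG1 edge lay inside the control edge in 77.5% of 1379 members on the upstream side, with a median of 64.0 bp, and in 80.8% on the downstream side, with a median of 114 bp.
The sgSNHG1 peak of largest overlap had a median width of 758 bp. It reached 1000 bp in 304 members (21.9%) and was wider than the control peak in 72 (5.18%). Since members were chosen for a large control width, a smaller width in the other list was favoured by the choice, and the widths of the lists were related only weakly (Spearman rho 0.17 across 1379 members, a description). The plot of widths shows this spread.

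**Figure D3:**
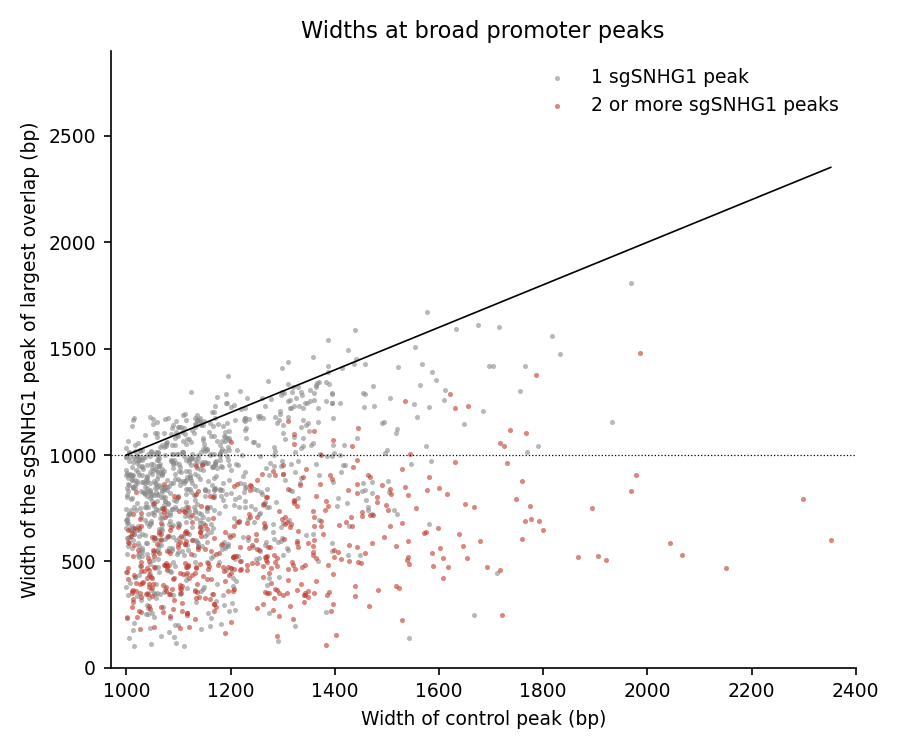
Width of the control peak (x axis, bp) and of the sgSNHG1 peak of largest overlap (y axis, bp) for the 1379 members with one. Grey points hold 1 sgSNHG1 peak and red points 2 or more. The solid line marks equal width and the dotted line 1000 bp. Most points lie below both lines, and 72 lie above the solid one.

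The same rule on the sgSNHG1 list gave 344 broad promoter peaks, and all 344 overlapped a control peak. These were covered to a median of 98.6% by control peaks, only 4 (1.16%) held 2 or more of them, and the control peak was the wider one in 230 (66.9%). Chosen on the sgSNHG1 width, the control peak was thus still wider in most pairs, at a median of 1194 bp against 1130 bp. Of the 344, 304 (88.4%) overlapped a member, which was 21.9% of the members. When the 1390 widest sgSNHG1 promoter peaks were taken in place of a fixed width, their narrowest was 749 bp, and 711 members (51.2% of both lists) overlapped one of them.

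Summit enrichment at the members was slightly lower in the sgSNHG1 list. Median fold enrichment was 7.69 at the sgSNHG1 peaks of largest overlap. On the log2 scale, fold enrichment in sgSNHG1 relative to control had a median ratio of -0.10 (interval -0.12 to -0.08, range -1.18 to 0.82), and it was below 0 in 897 of 1379 members (65%). In the mid-width promoter peaks it was -0.11 with 64.8% below 0, so that the members did not stand apart there (difference of the shares 0.220 points, interval -2.63 to 3.00). Over all pairs of control and sgSNHG1 peaks the median was -0.04. The members' order was kept to a large part, with a Spearman rho of 0.76 between the fold enrichments of the lists across 1379 members, as a description.
Fold enrichment divides by a local background that is itself drawn from the same fragments. The pileup scaled by the smallest background of its list gave a median log2 ratio of -0.20 (interval -0.23 to -0.18), against -0.09 in the mid-width peaks, 0.09 in those under 500 bp and -0.00 over all pairs. It was lower in sgSNHG1 in 74.5% of members and 60.8% of the mid-width peaks (difference 13.7, interval 11.0 to 16.2). With the same -log10 q of at least 32.1 it was -0.23 in members and -0.14 in narrower promoter peaks. Since a high control pileup goes with a high control width, the choice of members also favours a lower pileup in the other list. For the 344 peaks chosen on the sgSNHG1 width the median was -0.17 on this scale and -0.07 for fold enrichment.

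A fold enrichment at least 1.5-fold lower in sgSNHG1 was found at 71 members (5.15%), against 5.69% of all pairs. One at least 1.5-fold higher was found at 6 (0.435%), against 3.53% of all pairs and 0.512% of the mid-width promoter peaks. The counting standard error (SE) of a single log2 ratio, from the pileups at both summits, had a median of 0.30. It leaves out the error of the local backgrounds and any spread between replicates. Beyond 2 SE lay 48 members (3.48%), 38 of them lower and 10 higher, against 2.65% of all pairs and 2.17% of the mid-width promoter peaks. The choice of the sgSNHG1 peak bears on the falls. Of the 71, 42 held 2 or more sgSNHG1 peaks, and with the sgSNHG1 peak of highest fold enrichment in place of the one of largest overlap, 43 were at least 1.5-fold lower and 6 higher.

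**Figure D4:**
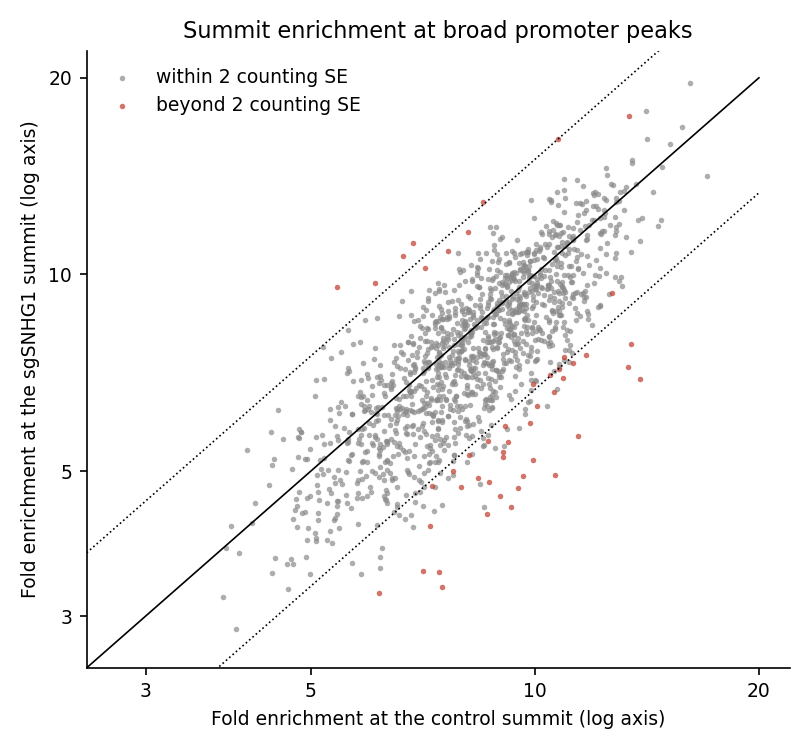
Fold enrichment at the control summit (x axis, log scale) and at the summit of the sgSNHG1 peak of largest overlap (y axis, log scale) for 1379 members. The solid line marks equality and the dotted lines a difference of 1.5-fold. The 48 red points (3.48%, against 2.65% of all pairs) lie beyond 2 counting SE, and 38 of them lie below the solid line.

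Among the members of highest fold enrichment, RMND5A, a gene of the CTLH ubiquitin ligase, had 16.1 and 19.6. MSANTD4 had 15.7 and 16.8, with the highest pileup of these genes, 212 fragments in control and 140 in sgSNHG1. NBPF9 had 15.2 and 15.8, but it belongs to a family of near-identical copies, so that its fragments are uncertain. AKAP13, an anchoring protein gene, had 14.8 and 14.6. RMND5A was higher in sgSNHG1 by 0.28 on the log2 scale (SE 0.25), which is not beyond 2 SE.

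Both lists gave a -log10 q of 10 or more at 1157 members, and those at CXADR, TUSC1 and YWHAG were among the largest falls. At CXADR, the coxsackievirus and adenovirus receptor gene, fold enrichment was 11.4 in control (78 fragments) and 5.67 in sgSNHG1 (24), a log2 ratio of -1.01 (SE 0.34). TUSC1, on chromosome 9, went from 13.3 (104) to 7.23 (22), a log2 ratio of -0.88 (SE 0.34). Both falls in fold enrichment were the same with the highest sgSNHG1 peak. For scaled pileup the log2 ratios were -1.34 at CXADR and -1.88 at TUSC1. A change in the number of copies at these genes was not tested. YWHAG, a 14-3-3 protein gene, did not keep its fall. Its control value of 9.06 stood against 5.25 at the sgSNHG1 peak of largest overlap (log2 ratio -0.79) and 10.0 at its other sgSNHG1 peak (0.15). The open stretch was present there and was listed in 2 pieces.

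The largest rise was smaller, at LCOR, a gene of a nuclear receptor corepressor. Its fold enrichment was 5.42 in control (34 fragments) and 9.58 in sgSNHG1 (49), a log2 ratio of 0.82 (SE 0.32). PNISR, which encodes a splicing-related SR protein, went from 6.86 to 11.2 (0.70, SE 0.28), with peaks of 1299 and 1298 bp. EPHA6, an ephrin receptor gene, went from 6.65 to 10.7 (0.68, SE 0.30), IVNS1ABP from 6.11 to 9.70 (0.67, SE 0.22), and the start shared by NDUFS1, a subunit gene of respiratory complex I, and EEF1B2, a translation elongation factor gene, from 8.51 to 12.9 (0.60, SE 0.27). All 5 exceeded 2 SE. These genes were picked as extremes of 1157 pairs, so that the SE of each does not allow for the choice.

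The 11 members without an sgSNHG1 peak had low control values, with a median fold enrichment of 5.23 and a median width of 1086 bp. The highest -log10 q among them was 23.3 at ZNF330 (chr4:141220619-141221704, fold enrichment 9.43, 35 fragments). It was followed by CCSER1 with 12.4, HHIP, which encodes an inhibitor of Hedgehog signalling, with 11.6, PREX1, which encodes an activator of Rac, with 11.3, and ADCY5, an adenylyl cyclase gene, with 10.4. The remaining ones, SFI1, SLFN11, SUSD4, FGF2, APOC3 and TLCD4, ranged from 10.3 down to 6.40 and were named after their values were seen. ZNF330, CCSER1, HHIP and FGF2 all lie on chromosome 4. No member without an sgSNHG1 peak lay at or above the members' median -log10 q of 32.1.

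Chromosome 4 stood apart among the members in scaled pileup. It held 99 of them. On this measure its paired members had a median of -0.90 on the log2 scale, lower in sgSNHG1 in 93 of 95. The medians of the other chromosomes ranged from -0.30 to -0.05. Coverage of the median member on chromosome 4 was 58.6%, which was not the lowest. It was 53.4% on chromosome X, 48.6% on chromosome 19 and 38.8% on chromosome 22, the last 2 with 6 members each. The median log2 ratio of fold enrichment, which is relative to the local background, was -0.19 on chromosome 4 and also on chromosome 16. A change in the number of copies of chromosome 4 between the lines and a change of its openness cannot be told apart in these lists. Without chromosomes 4, 9 and X, the 1203 remaining members had medians of -0.10 for fold enrichment and -0.18 for scaled pileup, a coverage of 72.5%, and 7 without an sgSNHG1 peak.

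The share of promoter peaks that were broad differed between chromosomes as well. It was 19.2% on chromosome 4 (99 of 515) and chromosome 21 (20 of 104), 17.6% on chromosome 8 and 16.4% on chromosome 2, and it fell to 4.71% on chromosome 17, 2.36% on chromosome 22 (6 of 254) and 0.890% on chromosome 19 (6 of 674, interval 0.409 to 1.93). The median GC content at promoter summits was 64.7% on chromosome 19, 68.2% on chromosome 22 and 67.7% on chromosome 4. The median local background of promoter peaks was 3.02 fragments on chromosome 19, 4.53 on chromosome 4 and 6.64 on chromosome 8. The part of GC content or of local background in the difference was not tested.

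Gene lists were compared by the share of their annotated genes with a broad promoter peak, beside 8.23% of all 19962 protein-coding gene symbols. The lists are small and their Wilson intervals wide. Above this share with the whole interval lay ubiquitin and heat shock genes (4 of 16, 25%, interval 10.2 to 49.5), splicing factors (8 of 36, 22.2%, interval 11.7 to 38.1), AP-1 and immediate early genes (5 of 24, 20.8%, interval 9.24 to 40.5) and transcription factors of the adrenergic neuroblastoma state (5 of 26, 19.2%, interval 8.51 to 37.9). Most genes of these lists have a promoter peak at all, and among the 12572 symbols with one the share was 13.1%. Counted over genes with a promoter peak, the 4 lists had 25%, 23.5%, 22.7% and 22.7%, in the same order, and each interval held 13.1%. A member was counted for every gene whose TSS lay within 3 kb, so that it need not hold that TSS. The members counted for RPL7, DDX5, HSPA8, EP300, PBX3 and IRX5, among others, did not hold the TSS of the gene named.

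**Figure D5:**
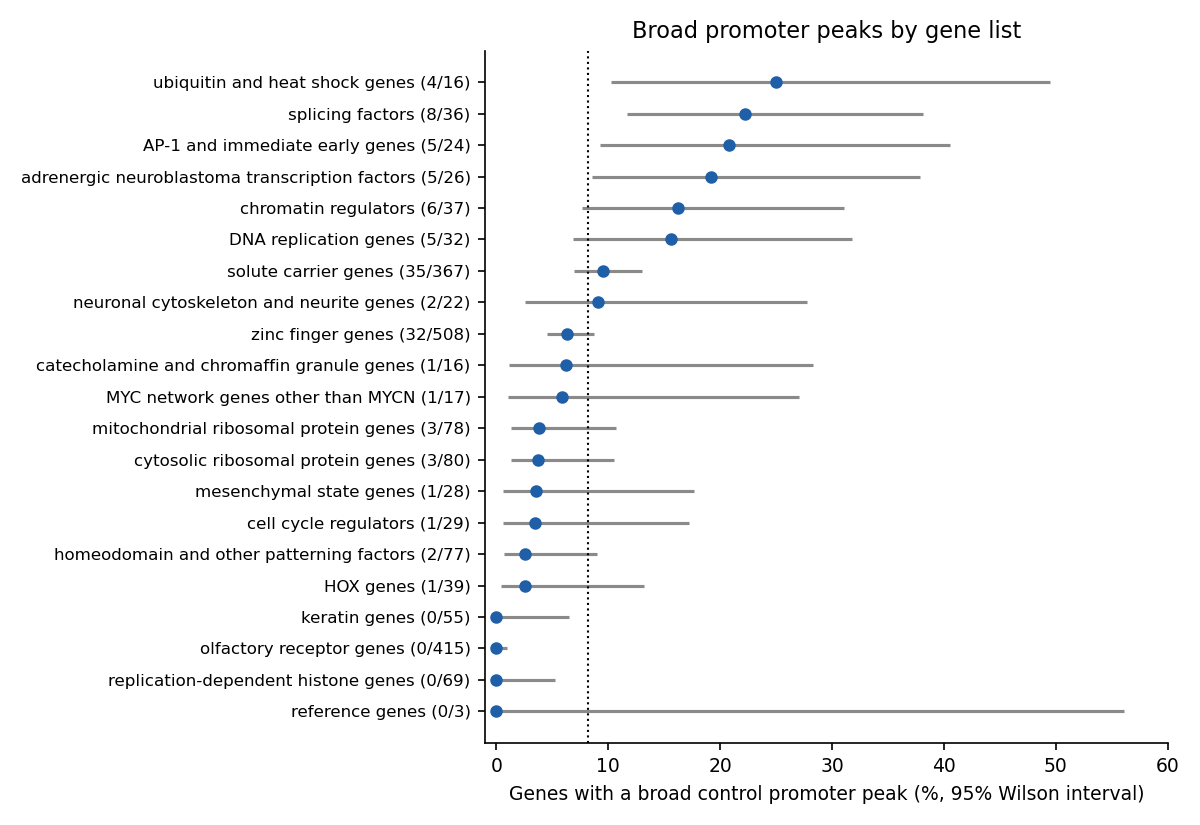
Share of the genes of each of 21 lists with a broad control promoter peak (x axis, %), with 95% Wilson intervals as bars and counts in the labels. The dotted line marks 8.23%, the share among all protein-coding gene symbols. Ubiquitin and heat shock genes (25%) and splicing factors (22.2%) lie at the top, and no olfactory receptor, keratin or replication-dependent histone gene has one.

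The splicing factors with a member were HNRNPA1, HNRNPA2B1, HNRNPK, DDX5, SRSF1, SRSF6, TRA2B and PTBP2. The hnRNP proteins package nascent transcripts. HNRNPA2B1 shares its start region with CBX3, a heterochromatin protein gene, under a control peak of 1920 bp that held 3 sgSNHG1 peaks, and its fold enrichment was 7.08 in control and 3.52 at the sgSNHG1 peak of largest overlap, a log2 ratio of -1.01 (SE 0.35), beyond 2 SE. The highest of the 3 sgSNHG1 peaks had 7.26. At CBX5 and HNRNPA1 the peak of 1318 bp had 8.02 in control, 6.58 at the sgSNHG1 peak of largest overlap (log2 ratio -0.29, SE 0.28) and 8.32 at the other. At HNRNPK and RMI1, 1396 bp were covered to 39.8% by 2 sgSNHG1 peaks, of 254 and 302 bp. At DDX5, an RNA helicase gene, and CEP95 the values were 6.52 in control and 5.93 in sgSNHG1. With the highest sgSNHG1 peak, the log2 ratios at these 4 regions lay between -0.14 and 0.05.

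Of the adrenergic factors, members lay at SOX11, INSM1, INSM2, HEY1 and KLF13. SOX11, a factor of sympathetic neuron precursors, had a peak of 1169 bp with 5.83 in control and 6.89 in sgSNHG1, in 3 pieces. INSM2, a zinc finger factor of neuroendocrine cells, had 10.2 and 10.9, KLF13 6.79 and 6.60, and HEY1, a Notch target, 7.65 and 5.48 (log2 ratio -0.48, SE 0.26). INSM1 had a peak of 1045 bp with 6.19 and 3.69, of which 17.7% was covered (log2 ratio -0.75, SE 0.49). None was beyond 2 SE. HAND2, GATA3, ISL1 and TBX2, which the study counts in the core regulatory circuitry, had no broad promoter peak. Their widest control promoter peaks were 266, 266, 737 and 456 bp, in this order. Among the catecholamine and chromaffin granule genes only GCH1, whose enzyme starts synthesis of the cofactor of tyrosine hydroxylase, had a member (1 of 16), with 7.40 and 6.97. Of the neuronal cytoskeleton genes NEFL, the neurofilament light chain gene, and STMN1, a microtubule regulator, did (2 of 22). For STMN1 the peak lay downstream of the TSS, and 29.1% of its 1151 bp was covered in sgSNHG1. VIM, the vimentin gene, was the only 1 of 28 mesenchymal state genes (3.57%, interval 0.633 to 17.7). That interval held the 8.23% of all genes, as did those of the catecholamine list (1.11 to 28.3) and the neuronal cytoskeleton list (2.53 to 27.8). The VIM peak of 1402 bp lay wholly downstream of the TSS, with a fold enrichment of 4.86 in control and 21.5% covered in sgSNHG1.

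Of the AP-1 and immediate early genes, which respond to growth factors and stress, members lay at EGR1, NR4A2, IER5, DUSP1 and JUND. IER5 had a peak of 1603 bp with 99 fragments at the summit and 10.4 in control against 13.1 in sgSNHG1 (log2 ratio 0.32, SE 0.21). NR4A2, a nuclear receptor gene, had 1647 bp with 8.62 and 7.89, EGR1 1578 bp with 5.94 and 6.43, and DUSP1, a phosphatase of MAP kinases, 1464 bp with 6.71 and 4.60 (log2 ratio -0.55, SE 0.35). The heat shock genes were HSPA4, HSPA8, HSP90AB1 and DNAJA1, with 7.84, 8.02, 4.79 and 10.1 in control and 7.42, 8.02, 4.42 and 6.30 in sgSNHG1. DNAJA1, a co-chaperone gene that shares its start with APTX, was the lowest of them relative to control (log2 ratio -0.67, SE 0.33).

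Chromatin regulators (6 of 37) and DNA replication genes (5 of 32) had shares of 16.2% and 15.6%, with intervals that held 8.23%. At EZH2, the methyltransferase of Polycomb complexes, a peak of 1558 bp had 9.54 in control and 7.72 in sgSNHG1. At CTCF, the insulator protein gene, 1373 bp had 7.44 and 7.26. HDAC4 had 6.89 and 7.31, and EP300, an acetyltransferase gene, 5.92 and 8.52 (log2 ratio 0.53, SE 0.38). MCM4, a subunit of the replicative helicase, shares its start with PRKDC under 1567 bp, with 10.2 and 9.87 and 91% covered. ORC6 with VPS35 had 9.86 and 10.5, and POLE with PXMP2 8.07 and 8.89. Cell cycle regulators had 1 of 29, CCNE2 (3.45%, interval 0.611 to 17.2), and MYC network genes 1 of 17 (5.88%, interval 1.05 to 27.0), both with intervals that held 8.23%. The member of the latter was ODC1, ornithine decarboxylase, which starts polyamine synthesis. Its fold enrichment was 9.85 in control (93 fragments) and 5.92 in sgSNHG1 (42), a log2 ratio of -0.73 (SE 0.27), beyond 2 SE.

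Of all gene symbols with a control promoter peak, 13.1% had a broad one, and ribosomal protein and replication-dependent histone genes had lower shares. Of 80 cytosolic ribosomal protein genes, 76 had a control promoter peak but 3 a broad one (RPL7, RPL15 and RPL22, 3.75%, interval 1.28 to 10.5). For 78 mitochondrial ribosomal protein genes these numbers were 73 and 3 (MRPL18, MRPL40 and MRPL51, 3.85%, interval 1.32 to 10.7). The intervals of these 2 families held the 8.23% of all genes. Counted over genes with a promoter peak, the cytosolic family had 3.95% (interval 1.35 to 11.0) and the mitochondrial one 4.11% (interval 1.41 to 11.4), below the 13.1% of all such genes. Of 69 replication-dependent histone genes, 56 had a promoter peak and none a broad one (interval up to 5.27%). At RPL22 the peak of 1014 bp was covered to 9.96% by an sgSNHG1 peak of 101 bp, at fold enrichments of 4.00 and 3.74. Homeodomain and other patterning factors had 2 of 77, PBX3 and IRX5 (interval 0.715 to 8.98). HOX genes had 1 of 39, HOXD8 (interval 0.454 to 13.2), in 3 sgSNHG1 pieces of 104, 253 and 345 bp. Both intervals held the 8.23% of all genes. ACTB, GAPDH and HPRT1 each had a promoter peak and none was broad. Of 415 olfactory receptor genes 16 had a promoter peak, and of 55 keratin genes 3, and none of these was broad. Zinc finger genes of the ZNF series (32 of 508, 6.30%, interval 4.50 to 8.76) and solute carriers (35 of 367, 9.54%, interval 6.94 to 13) had intervals that held the 8.23% of all genes. Counted over genes with a promoter peak, the ZNF series had 8.56% (interval 6.13 to 11.8), below the 13.1% of all such genes, and solute carriers had 17.5% (interval 12.9 to 23.4), which held it. Among them the ZNF496 peak of 1467 bp had 6.17 and 5.31, and the SLC12A2 peak of 1611 bp, at the gene of the sodium-potassium-chloride cotransporter NKCC1, had 9.04 and 7.12.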

How the data were processed

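ATAC-seq was performed on 4 samples, 2 of control and 2 of sgSNHG1 cells. The authors removed adapters (cutadapt), mapped the reads to GRCh38 (BWA), filtered them with GATK and Picard, shifted ends to the transposase cut with deepTools, pooled the replicates of a group, and called peaks with MACS2 in paired-end mode without a further removal of duplicates. Versions were not given in the sources used here. Pooling hides peaks of a single library, and removing duplicates lowers the highest peaks.

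For each peak the authors deposited a score, which is 10 times the -log10 q up to a cap of 1000. They also deposited a fold enrichment, the ratio of summit pileup to local background, and -log10 p and -log10 q values of a Poisson test in MACS2, none of which fell under 2.00 for q. Summit pileups, as whole numbers, were solved from fold enrichment and -log10 p within 0.001 for 47575 control and 42653 sgSNHG1 peaks. The others exceeded a -log10 p of 300. The depth of the libraries is not given in the lists, and the median summit pileup was 24 fragments in control and 20 in sgSNHG1.

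Genes came from GENCODE version 44, with the start of the gene record as TSS. Each member was paired with the sgSNHG1 peak of largest overlap, at least 1 bp. Shares have 95% Wilson intervals, differences of shares Newcombe intervals, and medians intervals from order statistics, all for counting error only. Named members were the 10 widest, the 5 of highest fold enrichment, the 5 of highest -log10 q without an sgSNHG1 peak, the 5 largest rises and falls, the 5 with most sgSNHG1 peaks, up to 4 of each gene list by width, 3 on either side of the width limit, and reference and marker genes. A few of the members so named are not reported here. Members and lists were chosen with earlier results of these data known. Alternatives changed the width, the TSS, the significance, the merging of peaks and the window of sequence. On simulated data, solving returned the true pileup for 100% of 19899 control summits, and overlap counting the planted number of pieces for 100% of 1390 peaks. Python 3.11.15 with pandas 2.3.3 and scipy 1.17.1 was used.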

Additional observations from a re-analysis of the deposited data

How the results depend on the processing

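No paired analysis was possible because both replicates of a group were pooled before peaks were called, and for the same reason no replicate could be left out. The number of members was 114 at a width of at least 1500 bp, 5 at 2000 bp and 344 on the sgSNHG1 list. The share that overlapped an sgSNHG1 peak was 82.2% when at least 50% had to be covered, 67.2% with at least 50% of both peaks, 85.8% with sgSNHG1 peaks of -log10 q of at least 10, and 100% at 2000 bp, for sgSNHG1 members against control and, in an alternative chosen after seeing the data, for members at or above their median -log10 q. It was 51.2% against the widest sgSNHG1 promoter peaks of equal number, also chosen after seeing the data. Median coverage was 75.3% with both lists merged across 500 bp, 64.4% with sgSNHG1 peaks of -log10 q of at least 10, 49.8% at 2000 bp and 98.6% for sgSNHG1 members. Members with 2 or more sgSNHG1 peaks were 27.6% and 2.52% after merging across the smallest control gap and across 500 bp, 6.26% at -log10 q of at least 10, 100% at 2000 bp and 1.16% for sgSNHG1 members. The median log2 ratio of fold enrichment stayed below 0 in all alternatives run, at -0.20 with scaled pileup, -0.08 with the highest sgSNHG1 peak, -0.06 where both peaks reached a -log10 q of 10, -0.34 at 2000 bp and -0.07 for sgSNHG1 members. In alternatives chosen after seeing the data it was -0.19 with the scaled pileup of the highest sgSNHG1 peak and -0.08 in members with 1 sgSNHG1 peak. GC content was 68.3% within 50 bp and 73.1% at 2000 bp, where CpG observed over expected was 0.641. A TSS lay inside 97.4% of members with any transcript's TSS and 80% at 2000 bp. Genes of all lists with a member were 0.611% at 1500 bp and 1.38% on the sgSNHG1 list, in place of 5.86%. Any of the 12 motifs was found in 63.2% within 50 bp, 87.3% within 100 bp and 99.4% within 250 bp. The values at 2000 bp rest on 5 peaks. For the other moved values the cause was not tested. Depth limits the single ratios, whose median counting SE was 0.30.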
